A study of Caenorhabditis elegans with 2 samples.

Results

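The binding of DAF-16, the FOXO transcription factor at the end of insulin-like signalling in Caenorhabditis elegans, was examined around 10 genes for the large ATP-dependent chaperones of the HSP60, HSP70, HSP90 and HSP110 families. The genes were chosen by name from the WBcel235 annotation and are 10 of 19973 protein-coding genes. Of these, 6 encode proteins of the cytosol (hsp-1, hsp-70, F44E5.4, F44E5.5, hsp-90 and hsp-110), 2 encode proteins of the endoplasmic reticulum (ER; hsp-3 and hsp-4) and 2 encode mitochondrial proteins (hsp-6 and hsp-60). A peak was assigned to a gene when its summit lay from 5 kb upstream to 5 kb downstream of it. This gave 37 of the 8777 peaks of the IDR list, the authors' list thresholded by the irreproducible discovery rate. That rate scores how well the ranks of peaks hold up between lists, and not every peak here was matched in both replicates. Of the 8777 peaks, 8748 lay on nuclear chromosomes.

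The measurement was chromatin immunoprecipitation and sequencing (ChIP-seq) of whole L4 larvae of mixed sex, 1 group of 2 biological replicates with no treated, starved or mutant group. All animals were of strain XE1464, listed with unc-119(ed3) III, and stably carried DAF-16 with GFP and FLAG at its C terminus. The promoter that drives the tagged protein is not given in the sources used here, and tissues cannot be told apart in whole animals. Binding alone was measured, not RNA, the libraries' depth is unknown because the lists hold no read counts, and the signal of a peak is the authors' own score, of unstated scale, which ranks peaks within a list.

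HSP70 proteins hold unfolded stretches of other proteins and release them under the control of ATP, J-domain co-chaperones and nucleotide exchange factors. HSP110 is a distant HSP70 relative that acts as such an exchange factor, HSP90 finishes the folding of receptors and kinases, and HSP60 encloses whole proteins in a chamber in mitochondria. Cytosolic heat shock genes are classic targets of the heat shock factor HSF-1, hsp-4 is the standard reporter of the ER unfolded protein response, and hsp-6 and hsp-60 are those of the mitochondrial one. HSF-1 and DAF-16 are both known to be needed for the long life of worms with low insulin-like signalling.

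The sequences below are windows around peak summits near these genes, read from the WBcel235 genome on the strand of the gene, and capitals mark the motifs searched. Both F44E5.4/F44E5.5 (chrII:11759425-11759575, + strand) and hsp-110 (chrIII:8447081-8447231, - strand) are shown for their heat shock elements, and hsp-90 (chrV:14685672-14685822, + strand) for a single heat shock dyad. The hsp-3 promoter window (chrX:6092126-6092276, - strand) holds an XBP-1 type core, and the hsp-3 intron window (chrX:6090910-6091056, - strand) a DAF-16 binding element. The hsp-60 intron window (chrIII:1622497-1622647, + strand) holds the DAF-16 associated element, and the hsp-6 window (chrV:4827081-4827231, - strand) none of the motifs searched.
F44E5.4/F44E5.5: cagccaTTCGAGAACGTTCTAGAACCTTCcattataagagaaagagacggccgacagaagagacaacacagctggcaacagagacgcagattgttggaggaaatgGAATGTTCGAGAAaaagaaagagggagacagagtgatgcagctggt
hsp-110: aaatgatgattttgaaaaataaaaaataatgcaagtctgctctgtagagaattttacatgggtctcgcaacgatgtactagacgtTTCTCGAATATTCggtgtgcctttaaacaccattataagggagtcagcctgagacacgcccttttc
hsp-90: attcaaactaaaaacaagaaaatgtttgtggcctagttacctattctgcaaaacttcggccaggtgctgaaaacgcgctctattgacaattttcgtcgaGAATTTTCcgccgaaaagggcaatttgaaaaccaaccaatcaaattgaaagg
hsp-3 promoter: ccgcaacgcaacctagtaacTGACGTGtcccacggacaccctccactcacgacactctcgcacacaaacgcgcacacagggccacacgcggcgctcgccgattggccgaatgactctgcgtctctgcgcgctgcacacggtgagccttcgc
hsp-3 intron: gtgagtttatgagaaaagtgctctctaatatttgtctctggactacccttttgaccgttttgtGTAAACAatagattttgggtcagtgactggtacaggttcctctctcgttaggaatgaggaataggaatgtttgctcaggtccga
hsp-60 intron: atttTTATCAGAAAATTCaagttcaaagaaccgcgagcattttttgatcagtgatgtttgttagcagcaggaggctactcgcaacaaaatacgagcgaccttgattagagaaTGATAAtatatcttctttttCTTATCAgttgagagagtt
hsp-6: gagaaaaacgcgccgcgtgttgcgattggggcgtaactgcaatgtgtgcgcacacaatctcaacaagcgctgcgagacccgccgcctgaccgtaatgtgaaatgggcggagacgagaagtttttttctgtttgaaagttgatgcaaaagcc

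DAF-16 peaks lay at the promoters of all 10 chaperone genes and at the ends of 9 of them. A promoter peak is one with its summit between 1000 bp before and 300 bp after an annotated transcript start, and 23.9% of all protein-coding genes had one. In 6 of the 10 genes such a peak was nearer to the gene's own start than to any other. The 23.9% carries no such limit, and a share over all genes under this stricter rule is not given. Within 5 kb every chaperone gene had a peak, against 54.3% of all protein-coding genes, and each had 2 to 6 peaks with a median of 4. Over all protein-coding genes the median was 1 peak, and 10.1% of genes had 4 or more. The 37 peaks had a median signal of 108 (range 36.0 to 368) against 107 over all nuclear peaks (35.4 to 1392). Of the 37 summits 16 were intergenic, 7 lay in coding exons, 6 in 3' UTRs and 5 in introns. The remaining summits were 2 in other exons and 1 in a 5' UTR. Shares of these classes over all nuclear summits are not given.

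Most of these peaks were found again in each replicate's own list, which holds background regions too and had 16146 entries for replicate 1 and 21378 for replicate 2. A summit within 100 bp counted as a match. Of the 37 peaks, 29 (78.4%) were matched in both replicates, 4 in replicate 1 only, 3 in replicate 2 only and 1 in neither. Over all nuclear peaks 77.3% were matched in both. All 19 chaperone peaks with a signal above 100 were matched in both, and the strongest of the unmatched had 97.5. The share matched among all nuclear peaks above 100 is not given. Whether the chaperone peaks differ from other strong peaks in this was therefore not tested. As a share of the list, 23 of the 29 matched peaks (79.3%) ranked higher in replicate 2 than in replicate 1, against 65.7% of all matched nuclear peaks.

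**Figure D1:**
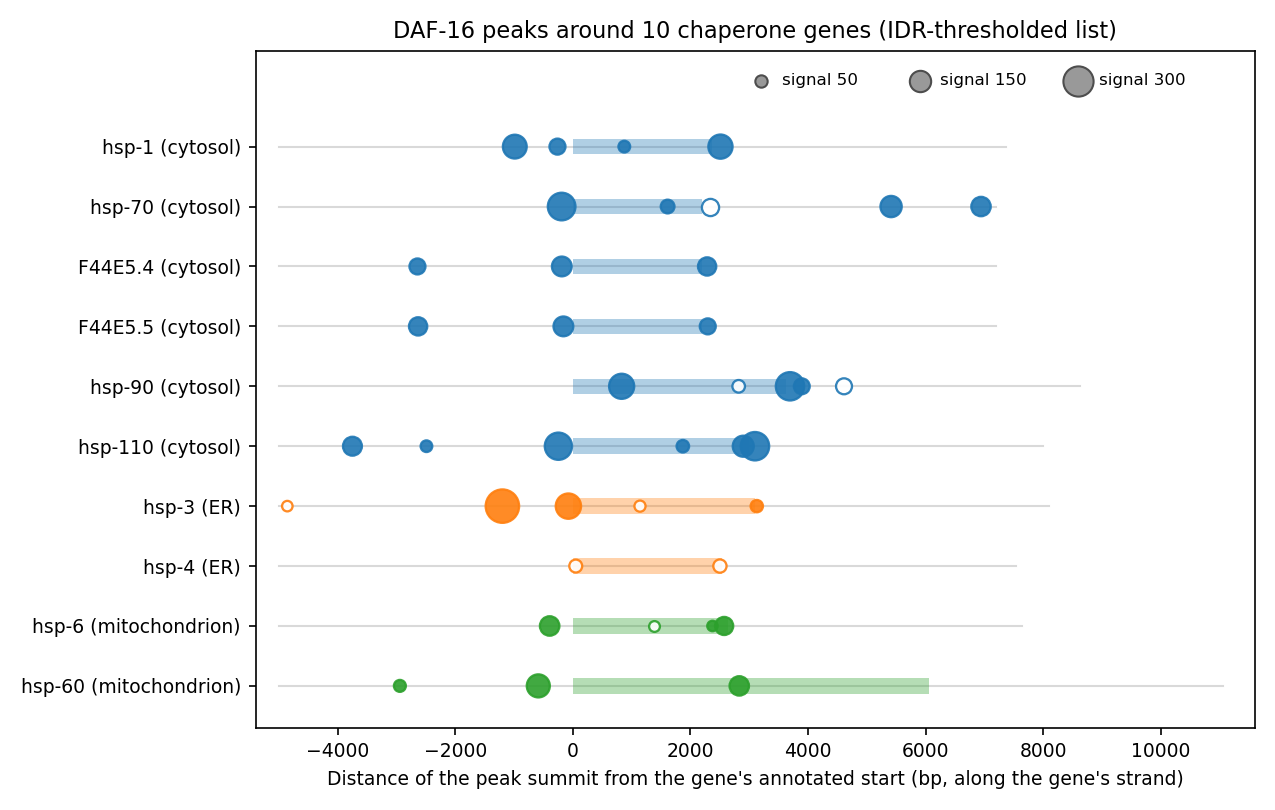
Position of each peak summit relative to the annotated start of its gene in bp, along the gene's strand, for the 10 chaperone genes. Boxes are the genes, grey lines the window of 5 kb on either side, circle area is the signal in the IDR list, and open circles are peaks not matched in both replicates. Peaks cluster just before the start and just past the end of most genes.

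The cytosolic gene hsp-70 (WBGene00002026, chromosome I, 9320325 to 9322519, - strand) encodes a heat-inducible HSP70. In the IDR list, the strongest promoter peak of the 10 genes was that of hsp-70. Its summit lay 192 bp upstream of the start, in an intron of uggt-2, a gene of the ER glycoprotein quality control family on the opposite strand in which hsp-70 is nested. The signal was 252 in the IDR list, 138 in replicate 1 and 91.4 in replicate 2. It ranked in the top 15.0% of the IDR list and the top 9.20% and 7.59% of the replicate lists. A further peak 3219 bp past the end (signal 149, with 78.9 and 76.9 in replicates 1 and 2) lay 607 bp from the start of uggt-2, nearer to it than to hsp-70. A peak 4749 bp past the end (124, with 55.8 and 44.8) was nearest to F26H9.5. The nearest peak outside the window was stronger, with a signal of 401, and lay 5323 bp from the gene, on a side not given here.

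The pair F44E5.4 (WBGene00009691, chromosome II, 11757107 to 11759311, - strand) and F44E5.5 (WBGene00009692, 11759662 to 11761861, + strand), 2 further heat-inducible HSP70 genes, are divergent and shared 1 promoter peak. It lay 189 bp upstream of F44E5.4 and 162 bp upstream of F44E5.5, with a signal of 129 in the IDR list, 83.8 in replicate 1 and 58.2 in replicate 2. This was a mid-ranked peak, at the top 41.8% of the list, and the lowest of the strongest promoter peaks of the 6 cytosolic genes. Because both genes read away from it, it cannot be assigned to either.

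The coding sequences of F44E5.4 and F44E5.5 were identical over all 1935 bases, and 98.2% of the 30-base words within either gene occurred elsewhere in the genome. Over the other 8 genes this share was at most 3.46%. No entry of the pooled list lay more than 200 bp inside either gene, against 2 to 7 inside each of the others. How reads that match several places were handled is not given in the sources used here, so an absence of peaks inside the pair cannot be read. None of the words around the summits of their 3 peaks occurred elsewhere.

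In hsp-1 (WBGene00002005, chromosome IV, 17278959 to 17281330, + strand), the constitutive cytosolic HSP70, 2 peaks fell in the promoter window. The stronger lay 989 bp upstream, near the edge of that window and 433 bp from the start of the C-type lectin gene clec-196, with a signal of 187 in the IDR list, 91.6 in replicate 1 and 82.8 in replicate 2. Nearest to hsp-1's own start, 263 bp upstream of it, a second peak had 84.5, with 40.9 and 23.8. So the peak closest to hsp-1 was the weaker in all 3 lists.

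The HSP90 gene hsp-90 (WBGene00000915, chromosome V, 14684918 to 14688545, + strand), also known as daf-21, had no peak upstream of its outer start within 5 kb. Its promoter peak lay in an intron, 413 bp upstream of a second annotated start inside the gene. The start of another gene, C47E8.4, was nearer, 262 bp from the summit, and also lies within the annotated span of hsp-90. The signal was 208 in the IDR list, 79.5 in replicate 1 and 90 in replicate 2. The hsp-90 promoter call therefore rests on the inner start alone. Beyond its end, peaks 267 bp away in C47E8.11 and 985 bp away in an intron of gasr-8 had signals of 82.6 and 83.7, the second with no match in replicate 1.

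The gene hsp-110 (WBGene00016250, chromosome III, 8443910 to 8446909, - strand) had the most peaks, 6, each matched in both replicates. The promoter peak, 247 bp upstream of hsp-110 and 197 bp from the divergent proteasome gene rpn-3, had a signal of 245 in the IDR list, 147 in replicate 1 and 104 in replicate 2. It was second to that of hsp-70 in the IDR list and ahead of it in both replicate lists. In replicate 1 the promoter peak of the ER gene hsp-3, with 165, was above both. Peaks 2492 and 3751 bp upstream had signals of 44.7 and 118 and lay nearest to mrpl-32, a gene for a mitochondrial ribosomal protein.

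The ER genes hsp-3 and hsp-4 encode 2 forms of the ER HSP70 known in mammals as BiP, with 85.5% protein identity. Of the 5 peaks around hsp-3, 3 were matched in both replicates, and of the 2 around hsp-4 none was. For hsp-3 (WBGene00002007, chromosome X, 6089028 to 6092124, - strand) the promoter peak 77 bp upstream had a signal of 211 in the IDR list, 165 in replicate 1 and 77.0 in replicate 2. The strongest peak within 5 kb of any of the 10 genes, with 368, 218 and 162, lay 1200 bp upstream of hsp-3, outside the promoter window, in a coding exon of C15H9.5 and 24 bp from its start. A weak intronic peak (40.6, with 16.2 in replicate 1 and none in replicate 2) lay 512 bp upstream of an inner start, and another (36.3, with 32.4 in replicate 1 and none in replicate 2) lay 4859 bp upstream of the gene. The nearest peak outside the window, 5558 bp from the gene on a side not given here, had a signal of 75.9.

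For hsp-4 (WBGene00002008, chromosome II, 7350112 to 7352645, - strand) both peaks were weak. The promoter peak, 48 bp past the start and in the 5' UTR, had a signal of 54.6, 9.44 in replicate 2 and no counterpart in replicate 1, whose nearest entry was 2352 bp away. The peak at the gene end had 57.7, and the nearest entries lay 101 bp away in replicate 1 and 102 bp away in replicate 2, just outside the match distance. Of the 10 genes, hsp-4 alone had no peak matched in both replicates, and a promoter peak matched in both was present at the other 9, against 19.6% of all protein-coding genes.

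The mitochondrial HSP70 gene hsp-6 (WBGene00002010, chromosome V, 4824124 to 4826760, - strand) had 1 promoter peak, 396 bp upstream. Its signal was 125 in the IDR list, 39.1 in replicate 1 and 62.3 in replicate 2, and the nearest protein-coding start was that of C37H5.5, 204 bp away. The chaperonin gene hsp-60 (WBGene00002025, chromosome III, 1619742 to 1625803, + strand) shared its promoter peak with Y22D7AL.10, which encodes the HSP10-type lid of the same chamber and is divergent from it. That peak lay 589 bp upstream of hsp-60 and 224 bp from Y22D7AL.10, with 175, 84.0 and 71.6. A second hsp-60 peak, in an intron 556 bp upstream of an inner start, had 124, 40.6 and 51.4, and a weak one 2944 bp upstream had 47.1, 32.0 and 21. Both mitochondrial genes were thus marked in both replicates, at peaks nearer to another gene's start, except for the intronic one.

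Compared by compartment, the strongest promoter signals were 129 to 252 over the 6 cytosolic genes (median 198), 54.6 and 211 at the 2 ER genes, and 125 and 175 at the 2 mitochondrial genes. These ranges overlap, with 1 ER gene near the cytosolic median and the other below all the rest. Of the distinct peaks, 20 of 23 around cytosolic genes were matched in both replicates, as were 3 of 7 around ER genes and 6 of 7 around mitochondrial genes. With 2 genes in each of 2 compartments, and a shared peak for F44E5.4 and F44E5.5, no test was made of a difference between compartments.

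Inside the genes, outside the promoter windows and more than 200 bp from the end, 5 of the 10 genes had a summit, against 6.56% of all protein-coding genes. The 10 include F44E5.4 and F44E5.5, inside which an absence of peaks cannot be read. There were 6 such summits, 2 in hsp-6 and 1 each in hsp-1, hsp-70, hsp-90 and hsp-110, 5 of them in coding exons. Their signals ran from 36.0 in hsp-6 to 62.3 in hsp-70, all below the median of 107 over nuclear peaks, and 4 of the 6 were matched in both replicates. In hsp-70 the body peak had 29.8 in replicate 1 and 8.16 in replicate 2, and in hsp-1 it had 45.4, 28.2 and 8.81.

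**Figure D2:**
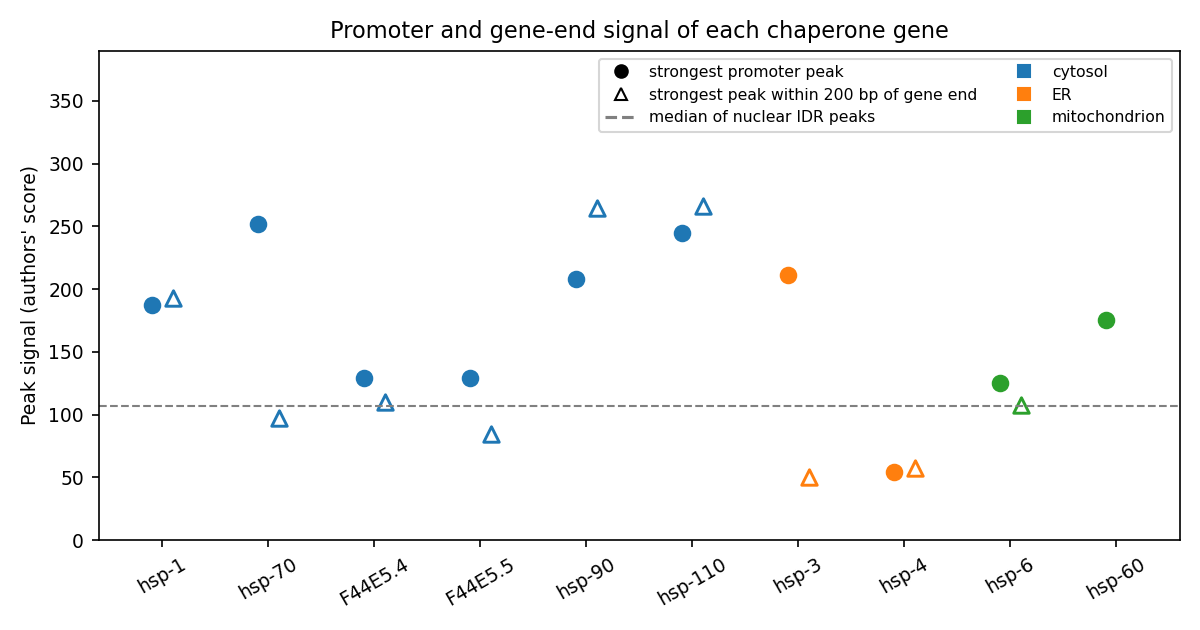
Signal in the IDR list of the strongest promoter peak (filled circles) and of the strongest peak within 200 bp of the annotated gene end (open triangles) for each gene, coloured by compartment, with the median of all nuclear peaks (107) as a dashed line. The promoter signals run from 54.6 at hsp-4 to 252 at hsp-70, and hsp-60 has no gene-end peak.

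Most of these genes also had a peak at their end. Within 200 bp of the annotated end a summit was present at 9 of 10 genes, all but hsp-60, against 5.91% of all protein-coding genes. Among genes with a promoter peak the share was 14.2%. The window of 200 bp was set after the values had been seen, so this count describes these genes. For 7 of the 9 genes the gene-end peak was matched in both replicates, and for 7 a summit lay past the end, not inside the gene.

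The strongest of them lay 98 bp past the end of hsp-110, with a signal of 266 in the IDR list, 168 in replicate 1 and 110 in replicate 2, and a second summit of the same interval (146) lay 101 bp inside. That of hsp-90, 66 bp past its end, had 265, 116 and 130. At hsp-1 the peak 139 bp past the end had 193, 137 and 58.3, in the 3' UTR of nra-1 on the opposite strand. In these 3 genes and in hsp-4 the gene-end signal in the IDR list exceeded that of the strongest promoter peak, with 193 against 187 at hsp-1 and 57.7 against 54.6 at hsp-4. The order held in both replicates at hsp-90 and hsp-110, while in replicate 2 the hsp-1 promoter peak was the stronger, with 82.8 against 58.3. Starts of other genes were close by at hsp-90, where C47E8.11 begins 5 bp from the summit, and at hsp-110, where ufbp-1 begins 205 bp from it.

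The other gene ends were weaker. Past the end of F44E5.4 by 79 bp lay a peak of 110 (29.9 in replicate 1 and 77.1 in replicate 2), and past that of F44E5.5 by 95 bp one of 84.2 (11.8 and 61.7). The hsp-6 peak, 63 bp inside the end, had 108, 34.3 and 84.7, and hsp-3 had 50.1, 5.25 and 46.1 at 32 bp past its end. All 4 ranked far higher in replicate 2 than in replicate 1. The hsp-70 peak 144 bp past the end had 97.5 and 58.1 in replicate 2, with no match in replicate 1, and 45.1% of the 30-base words around it occurred elsewhere in the genome.

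Starts of other genes lay near few of the gene ends. In 8 of the 10 chaperone genes the end was more than 500 bp from the start of any other protein-coding gene, and 7 of these 8 had a gene-end peak, against 4.51% of all protein-coding genes with such ends. In bins of 200 bp, 7 of 10 genes had a summit in the first bin past the end, against 4.40% of all genes, and 3 of 10 in the last bin before it, against 1.65%. The next bin past the end held 1 gene.

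**Figure D3:**
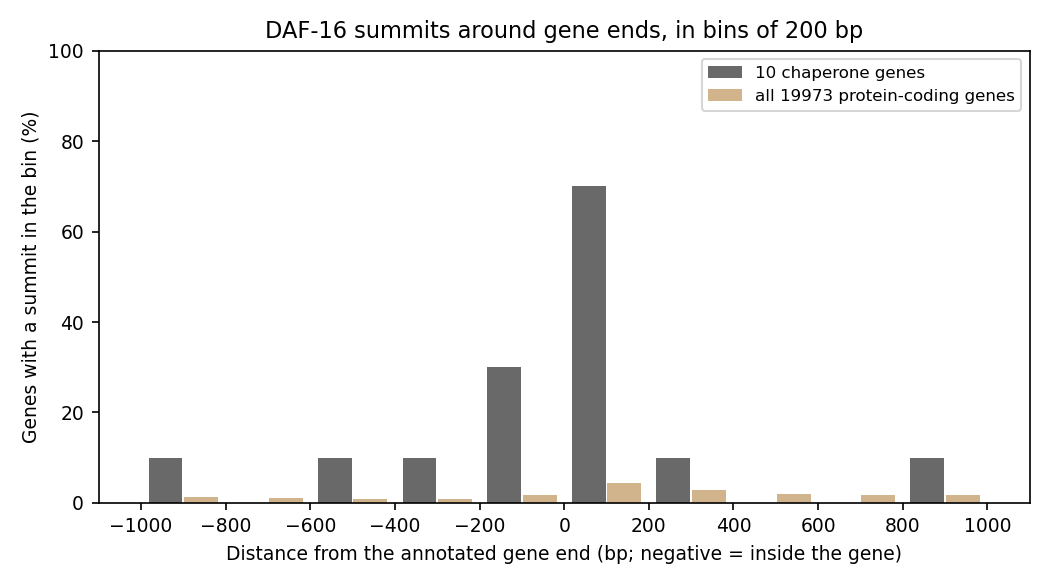
Share of genes (%) with a summit of the IDR list in each bin of 200 bp around the annotated gene end, negative distances being inside the gene, for the 10 chaperone genes (grey) and all 19973 protein-coding genes (tan). The chaperone genes reach 70% in the first bin past the end, where all genes reach 4.40%.

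**Figure D4:**
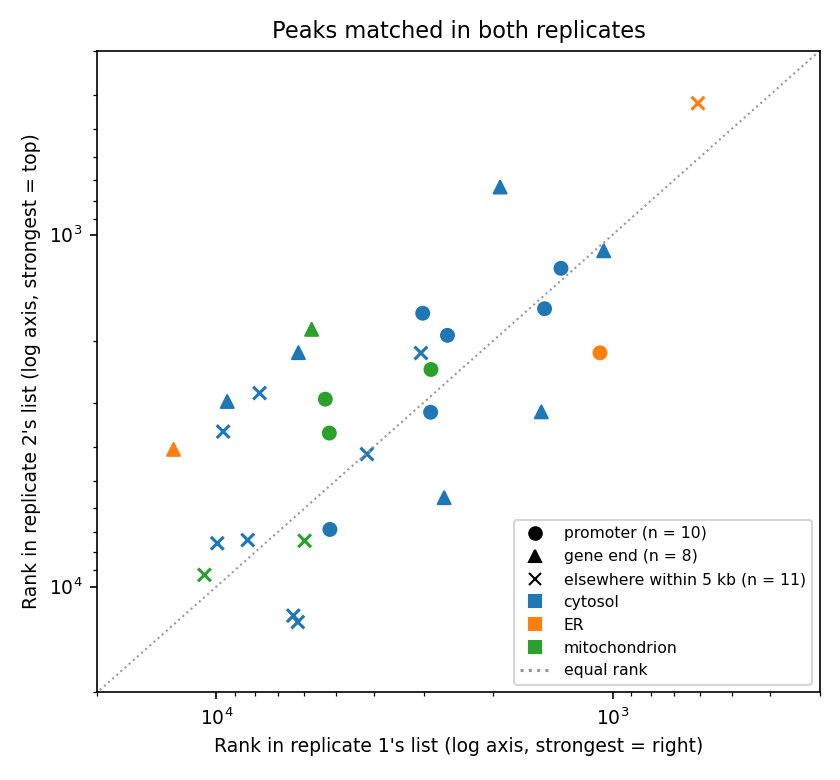
Rank of each of the 29 matched peaks in the list of replicate 1 (horizontal, log axis) and of replicate 2 (vertical, log axis), strongest at the upper right, with symbols for the 10 promoter peaks, the 8 gene-end peaks and the 11 others, and colours for the compartments. The dotted line marks equal rank, and the strongest peak in both lists is that upstream of hsp-3, with signals of 218 and 162.

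Motif letters were counted at the summits. Within 75 bp of a summit and on both strands, GTAAACA was found at 2 of the 37 peaks (5.41%), against 8.94% of the 8748 nuclear summits. The 2 were the hsp-70 promoter peak, 21 bp from its summit, and the hsp-3 intron peak, 4 bp from its summit. The DAF-16 associated element CTTATCA was found at 3 (8.11% against 21.8%) and the GATA motif TGATAA at 7 (18.9% against 42.5%), and each match of the former holds the latter on the other strand. No match says only that these letters are not in the window.

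Heat shock dyads are the building blocks of the site bound by heat shock factor. The head-to-head dyad GAANNTTC was found at 7 of 37 peaks (18.9%, against 6.57%) and at 5 of the 12 promoter peaks, namely those of hsp-70, hsp-90, hsp-110, the F44E5.4/F44E5.5 pair and the hsp-60 intron. The tail-to-tail dyad TTCNNGAA was found at 4 (10.8% against 6.33%). The E-box CACGTG was found at 3 (8.11% against 6.02%), and the XBP-1 type core TGACGTG at 1, the hsp-3 promoter (2.70% against 2.42%), 49 bp from the summit in the window printed above. The 2 dyads overlap where a longer element is present, so their counts are not separate.

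A longer heat shock element, in which a head and a tail dyad share 3 bases, was sought before the starts of the 10 genes. In the 300 bp upstream of the gene's outer annotated start it was present at all 6 cytosolic genes and at none of the 4 ER and mitochondrial genes, against 1.92% of all protein-coding genes. Such elements are the known landing sites of HSF-1, so their presence at heat shock genes is background and not a result of the ChIP-seq. F44E5.4 had 10 matches and F44E5.5 had 9, overlapping matches counted separately, and the 9 are among the 10 because the 2 windows overlap. There were 2 at hsp-110 and at hsp-90, and 1 at hsp-1 and hsp-70.

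The distance from these elements to the DAF-16 summits varied. At hsp-110 the nearest element was centred 16 bp from the promoter summit, and in the F44E5.4/F44E5.5 window 36 bp from it. At hsp-70 and hsp-1 the distance was 125 bp, taken for hsp-1 from the peak nearest its start. At hsp-90 it was 838 bp, since the elements lie at the outer start and the peak lies in the intron. The XBP-1 type core was present upstream of hsp-3 and hsp-4 and of no other chaperone gene, against 2.82% of all protein-coding genes, and GTAAACA only upstream of hsp-70, against 5.01%.

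Chaperones work with partners, and peaks near 48 partner genes were counted in the same way. Of these 48 genes, in 5 lists, 30 (62.5%) had a promoter peak, against 23.9% of all protein-coding genes, and 13 (27.1%) a gene-end peak. Not all of these promoter peaks were matched in both replicates. The strongest one of dnj-7 had no match in either, those of sti-1 and daf-41 none in replicate 2, and those of dnj-12 and dve-1 none in replicate 1. For pdi-3, dnj-19, sgt-1, fkb-6, daf-41, timm-23 and stc-1 the strongest promoter peak lay nearest to another gene's start. Ranges in brackets after a share are 95% Wilson intervals, which cover counting error alone. They treat genes as independent draws, whereas the lists were chosen with earlier results of these data known. No test against the share over all genes was made. Cytosolic co-chaperones had a promoter peak at 10 of 15 (66.7%, 41.7 to 84.8) and a gene-end peak at 8 of 15 (53.3%). These 8 include dnj-13, cdc-37, chn-1 and sgt-1, whose ends lie within 500 bp of another gene's start. The chn-1 peak is also the promoter peak of tin-44, counted among the mitochondrial partners. The cdc-37 peak, with a signal of 35.5, had no match in replicate 1. ER folding partners had 8 of 11 (72.7%, 43.4 to 90.3) and 2 gene-end peaks, and mitochondrial partners 9 of 14 (64.3%, 38.8 to 83.7) and 2.

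The strongest promoter peaks of the cytosolic co-chaperones were those of bag-1, an exchange factor of HSP70 (signal 246 in the IDR list, 150 in replicate 1 and 85.0 in replicate 2), dnj-13, a J-domain protein (216, 148 and 49.5), and unc-23, of the BAG family (208, 100 and 95.6). Their gene ends had peaks too, of 44.1, 129 and 92.0. The strongest gene-end peak among the partners was that of unc-45, the myosin chaperone that works with HSP90, with 329, 210 and 149, and it had no promoter peak. It was named after its value had been seen.

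In the ER, pdi-2, a protein disulphide isomerase, had a promoter peak of 239 (107 and 75.2 in replicates 1 and 2), enpl-1, the ER form of HSP90, 178 (77.5 and 101), and the J-domain gene dnj-20 162 (109 and 23.1). In mitochondria, Y22D7AL.10 had the peak of 175 that it shares with hsp-60. Next came atfs-1, the transcription factor of the mitochondrial unfolded protein response, with 151 (119 and 32.0), and haf-1, a peptide exporter of the same response, with 133 (68.4 and 44.8). All of these peaks were matched in both replicates.

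Among the regulators of the heat shock response, hsf-1 itself, ddl-1 and ddl-2 had no promoter peak. The gene hsb-1, whose product binds and restrains HSF-1, had one of 275 in the IDR list, 104 in replicate 1 and 145 in replicate 2. The list was thus at 1 of 4 (25%, 4.56 to 69.9). Of 4 other HSP70-like genes 2 had a promoter peak (50%, 15.0 to 85.0), stc-1 with 251 (138 and 158), nearest to the start of F54C9.3, and T14G8.3 with 114 (75.8 and 29.9).

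**Figure D5:**
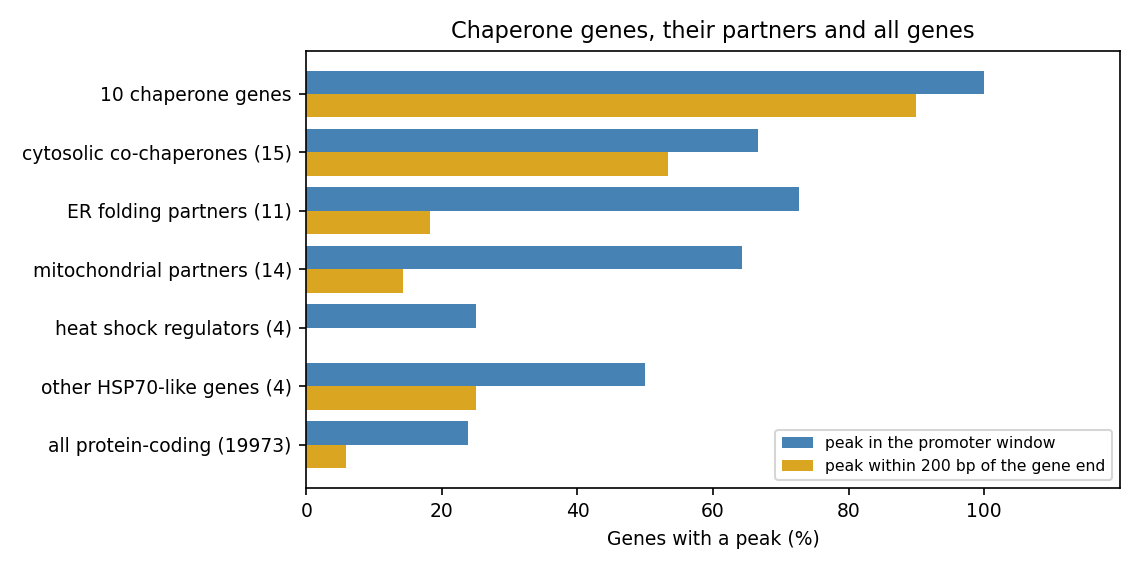
Share of genes (%) with a peak in the promoter window (blue) and within 200 bp of the gene end (yellow) for the 10 chaperone genes, the 5 lists of related genes with the number of genes in brackets, and all 19973 protein-coding genes. Gene-end peaks are found at 90% of the chaperone genes, 53.3% of the cytosolic co-chaperones and 5.91% of all genes. Ends close to the start of another gene are included.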

How the data were processed

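DAF-16 ChIP-seq peak lists of 2 biological replicates were used on build ce11, whose sequence is WBcel235. Each list holds a signal per peak, a score that the authors deposited with a scale not stated, and served here for ranks, filters and descriptions inside a list. Per the file lists deposited with the samples, the lists derive from alignments and a control file. Not given in the sources used here are the aligner, the peak caller, the IDR threshold and the handling of reads with several matches. Lists on ce10 and signal tracks were not used here.

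Summits were joined to the Ensembl release 115 annotation, after no peak had been found to end beyond its chromosome, and sequences were read from the RefSeq genome of the same assembly. Annotation classes, promoter windows, gene-end windows, matches within 100 bp, motifs on both strands, and 30-base words shared with other loci were computed over all genes or summits where a background share is given. Protein and coding identity came from the annotated coding sequences, translated for the protein. The code for the 5 kb, promoter and gene-end windows and for motifs was checked on simulated peaks and motifs, all of which it recovered. Replicate matches, nearest starts, annotation classes and shared 30-base words were not checked in this way.

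The design has no contrast, so counts and values are descriptions without p-values. Replicates are named as biological in the labels, which do not say how cultures were separated. The genes, partner lists and windows were chosen with earlier results of these data known. Named genes are the 10 chaperone genes, the gene with the nearest start to each peak, and up to 3 partners per list with the strongest promoter peaks. Others were named after their values were seen. Of 49 partner genes 48 were found, all but hsf-2. Alternatives were other windows, match distances, peak sets, nearest starts, motif windows and single replicates. The tools were biopython 1.88, matplotlib 3.10.9, scipy 1.17.1, pandas 2.3.3 and numpy 2.4.6 under Python 3.11.15.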

Additional observations from a re-analysis of the deposited data

How the results depend on the processing

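Of 106 alternative values 21 moved. A count or share moved if it changed by more than 1.5 times, and the strongest signal of a gene if it changed at all. Reversal was not assessed, because counts, shares and signals have no direction. The share of all protein-coding genes with a peak nearby, 54.3% within 5 kb, was 39.3% within 2 kb and 70% within 10 kb. No paired analysis was possible because there was 1 group. The peaks within 5 kb, 37 of them with 29 matched in both replicates, became 19 and 19 with the stronger 50% of peaks and 15 and 10 with peaks given only to the nearest start. The pooled list, which holds background regions, had 99. With nearest starts the genes with a promoter peak fell from 10 to 6, without hsp-6, hsp-90, hsp-110 and F44E5.4, which left 3 of the cytosolic and 1 of the mitochondrial genes. The share of all protein-coding genes under this rule is not given. A narrower promoter window (500 bp before a start to 100 bp after) lost hsp-60, which left 1 mitochondrial gene. With it 9 of the 10 genes had a promoter peak, against 18.9% of all protein-coding genes. The stronger 50% of peaks lost hsp-4, which left 1 ER gene, as did replicate 1's own strongest peaks. Without replicate 1 or without replicate 2, 10 and 9 genes had a promoter peak, and in the ER 2 and 1. Shares of all genes with a promoter peak were not computed for the stronger peaks or for single replicates. Gene-end peaks, chosen after seeing the data as were their alternatives, were at 9 genes. They were at 5 with the stronger 50% of peaks (2.56% of all genes), 7 within 100 bp (2.99%) and 9 within 300 bp (7.98%). With the pooled list they were at 10 (13.7%), without replicate 1 at 8 (5.55%) and without replicate 2 at 7 (5.91%). With 50 bp on either side of the summit, CTTATCA was at 1 peak, TGATAA at 4 and TGACGTG at 0. With 150 bp, TGACGTG was at 2, GAANNTTC at 11 and TTCNNGAA at 17. Shares over all nuclear summits were not computed at 50 or 150 bp, so these counts have no background. Within 10 kb the strongest peak was 401 at hsp-70 and 131 at F44E5.4 and F44E5.5. Depth could not be weighed, since the lists hold no read counts.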
